A study of Mus musculus with 42 samples.

Results

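The genes described here are the nuclear genes of mitochondrial complex I, followed in RNA-seq libraries of mouse cerebellum. They were chosen by symbol: every protein-coding gene whose name begins with Nduf, then a, b, c, s, v or ab, then a number, which leaves out the Ndufaf assembly factors. The rule found 38 of the 35275 genes listed, and all 38 passed the filter on low counts in both tables. Of these, 36 are complex I subunits: 7 core subunits, 9 accessory subunits of the matrix arm, 19 accessory subunits of the membrane arm and Ndufab1, the acyl carrier protein that sits in both arms. The other two match by name only: Ndufa4 is a subunit of complex IV, and Ndufa4l2 is its paralogue. No gene named Ndufb1 was matched. All mice were males of the strain labelled C57BL/6, started at 3 months of age. The AL group had free access to food, the IF16 group was fasted for 16 h each day and the EOD group was fasted for 24 h on alternate days, each for 3 months and to an age of 6 months. The refed AL, refed IF16 and refed EOD groups, marked by a suffix R in the labels, went through the same 3 months and then 2 months of free access to food, to an age of 8 months. Each of the 6 groups has 5 libraries from whole frozen cerebellum. The study's design asks whether fasting alters the cerebellar transcriptome and whether differences remain after refeeding. The labels number the libraries of a group but do not say how they relate to mice, so p-values measure the spread between these libraries.

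Complex I (NADH:ubiquinone oxidoreductase) is the entry point for electrons from NADH into the respiratory chain and pumps protons across the inner mitochondrial membrane. Its core subunits carry the flavin, the iron-sulfur clusters and the quinone site. The core subunits of the membrane arm are encoded by mitochondrial DNA, while the core subunits of the matrix arm and all the accessory subunits are nuclear, so that the complex needs mRNA from both genomes. Neurons depend on it for ATP, and loss of accessory subunits such as Ndufs4 causes encephalopathy in mice that involves the cerebellum and brainstem.

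Total counts per library ranged from 26799825 to 36167435, and the 36 subunits together took 0.303% to 0.525% of them. Summed markers of granule cells (6342 to 7490.0 CPM, counts scaled to library size) and Purkinje cells (4915 to 7347 CPM) were high in all 30 libraries, as the tissue label says. Markers of the choroid plexus, a secretory epithelium that borders the cerebellum, varied from 155 to 5116 CPM. A length gradient was computed for each library: the slope, over all genes tested, of a gene's log2 deviation from its mean on the log2 of its length. It was beyond 0.1 in either direction in 4 libraries, all at the end of the regimens: AL replicates 4 (-0.16) and 5 (-0.11) and IF16 replicate 1 (-0.11), where short genes were high, and EOD replicate 4 (0.14), where they were low. After refeeding it lay between -0.026 and 0.042. In bulk tissue, fewer cells of a type and less RNA per cell cannot be told apart.

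The subunits were among the abundant transcripts of the cerebellum. Per length, the median of their mean FPKM (the deposited level, scaled to gene length and library total) over the 30 libraries was 100.1, and their median position was above 96.3% of the genes tested. Of the 36 subunits, 30 lay between 40 and 200 FPKM. Medians were 105 FPKM for the core, 115 FPKM for the accessory subunits of the matrix arm and 94.8 FPKM for those of the membrane arm, so that the classes lay close to each other. The highest subunits were Ndufs7, which carries the iron-sulfur cluster nearest the quinone site, at 193 FPKM (146 to 330 over libraries), and Ndufa5, a small accessory subunit of the matrix arm, at 191 FPKM (134 to 300.4). Ndufb9, at 190 FPKM, and Ndufc2, at 184 FPKM, followed, and the ranges of all 4 overlapped. The lowest subunit was Ndufb2 at 5.28 FPKM (4.29 to 7.05), which is 36.6 times under Ndufs7, and Ndufb7 followed at 18.3 FPKM. Both have long listed lengths, 4371 and 4435 bases against a median of 1014.5 bases for the 36 subunits, which lowers a level per length. Ndufb2 also overlaps Adck2 on its own strand and Braf on the other. Such overlaps with other listed genes affect 11 of the 38 genes, among them Ndufs1 (with Eef1b2) and Ndufa4l2 (with Shmt2), and how the counting assigned their shared reads is not given in the sources used here. The genes matched by name only were the extremes of the whole group: Ndufa4 at 483 FPKM was above every subunit in its mean, and Ndufa4l2 at 4.38 FPKM was below every one.

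**Figure D1:**
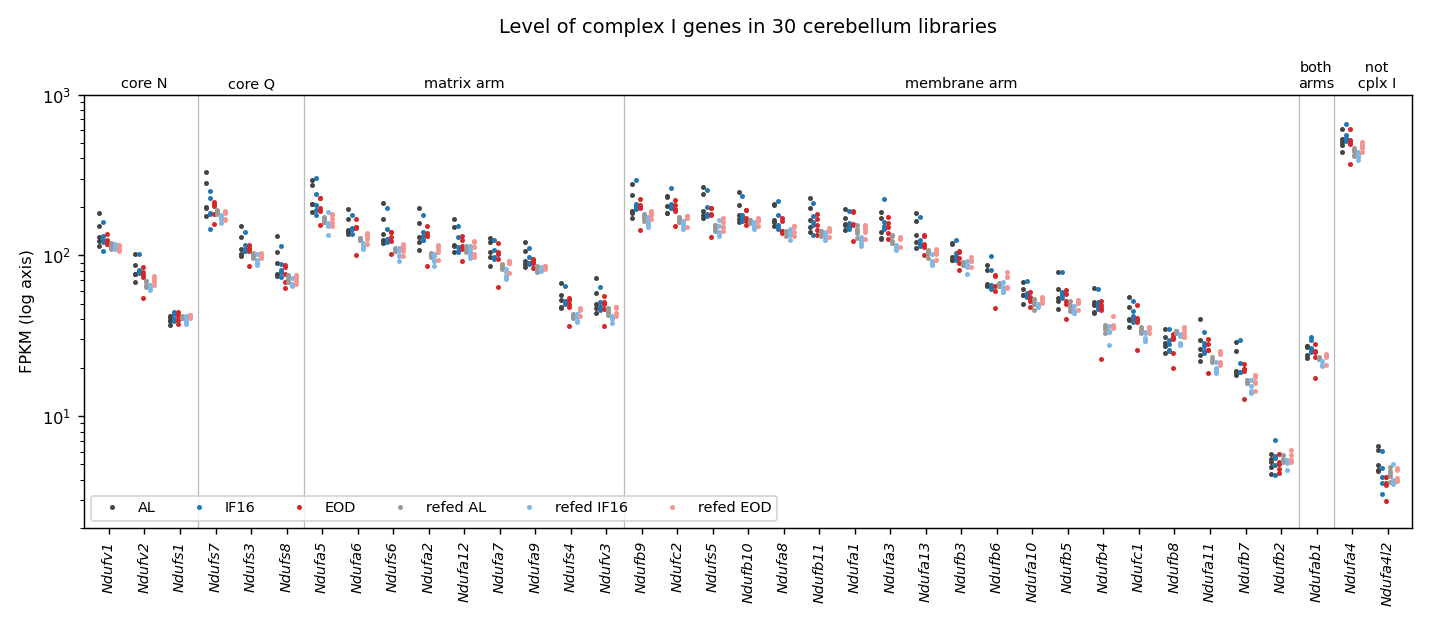
FPKM on a log axis of the genes reported by name in each of the 30 libraries (points, coloured by group), ordered by place in the complex and by level. Most subunits lie between 40 and 200 FPKM, and Ndufb2 lies near 5.28 FPKM.

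Within groups the subunits varied together. After each group's mean was taken out, the median correlation over the 630 pairs of subunits was 0.88 in the 15 libraries of the regimens, with 91.4% of pairs positive, and 0.59 in the 15 refed libraries, with 93.3% positive. These are descriptions over libraries that the genes share. At the end of the regimens, 33 of the 36 subunits correlated above 0.8 with the mean of the others. The exceptions were Ndufab1 (0.72), Ndufs1 (-0.09) and Ndufb2 (-0.36). Ndufs1, the largest core subunit and the one that carries several iron-sulfur clusters of the electron path, stood apart after refeeding as well (-0.33), while Ndufb2 did not (0.58). After refeeding Ndufs1 had a within-group SD of 0.036 log2 CPM, against a median of 0.077 over the subunits. Counting error weighs more in so small a spread.

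The mean log2 CPM of the 36 subunits was 6.47, 6.46, 6.55, 7.04 and 6.84 in AL replicates 1 to 5, 6.96, 6.63, 6.51, 6.52 and 6.56 in IF16 and 6.52, 6.52, 6.70, 6.23 and 6.65 in EOD. The 3 highest values belong to AL replicates 4 and 5 and IF16 replicate 1, the lowest to EOD replicate 4, and the groups overlap. The same 3 libraries were the highest of the 15 in the mean log2 CPM of 6 oligodendrocyte markers (9.17, 9.05 and 9.04, with 8.93 next) and of 6 microglia markers (4.44, 4.31 and 4.26, with 4.11 next). By summed CPM this held for microglia, but for oligodendrocytes EOD replicate 4 (6102) lay above IF16 replicate 1 (6005). Summed Purkinje markers were lowest in the same 3 libraries (4915, 5353 and 5371 CPM, with 5693 next). By mean log2 CPM the lowest for Purkinje markers was AL replicate 1 (9.07). The part of these cells in the subunit mean was not tested. The refed libraries lay closer together, at 6.38, 6.35, 6.39, 6.43 and 6.41 in refed AL, 6.21, 6.37, 6.29, 6.37 and 6.29 in refed IF16 and 6.31, 6.47, 6.43, 6.43 and 6.50 in refed EOD. The pooled SD within groups was 0.21 at the end of the regimens and 0.06 after refeeding. Levels in the 2 tables were scaled separately and are not compared.

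**Figure D2:**
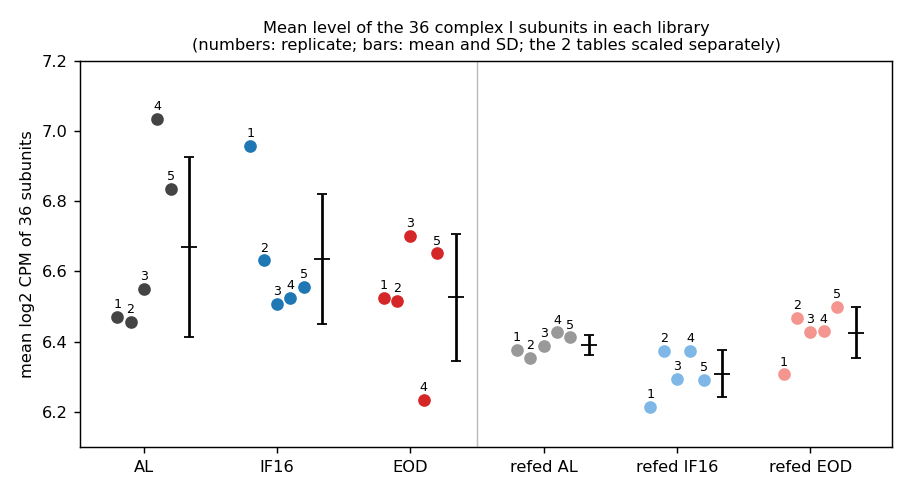
Mean log2 CPM of the 36 subunits (y axis) in each library, by group (x axis), with the replicate number above each point and the group's mean and SD beside it. AL replicates 4 and 5 and IF16 replicate 1 stand high at 7.04, 6.84 and 6.96, EOD replicate 4 stands low at 6.23, and the refed groups spread less.

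This mean moved with the length gradient. Over the 15 libraries of the regimens, Pearson's r was -0.96 and Spearman's rho -0.88, and r was -0.92 once the pair of libraries with the most distant gradients was left out and -0.97 once group means were taken out. Over the 15 refed libraries r was -0.72, rho -0.76, and r within groups -0.50. The subunits are short genes, with a median length of 1014.5 bases (419 to 4435) against 2988 bases for the genes tested in the regimens. Single subunits showed it to different degrees: at the end of the regimens 32 of 36 correlated below -0.8 with the gradient, with Ndufs5 (-0.98) the most negative. Ndufb4 (-0.80) and Ndufab1 (-0.61) lay just outside or further off (Ndufs5 and Ndufb4 were picked after their values were seen), while Ndufs1 (0.22) and Ndufb2 (0.47), with listed lengths of 2661 and 4371 bases, went the other way. Listed length alone did not order them, since Ndufb7, with 4435 bases, had a correlation of -0.96. After refeeding no subunit was below -0.8, and the median was -0.39. The comparisons that follow are also given from 2 further fits, one with the gradient as a covariate and one with a smooth length trend removed by offsets.

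**Figure D3:**
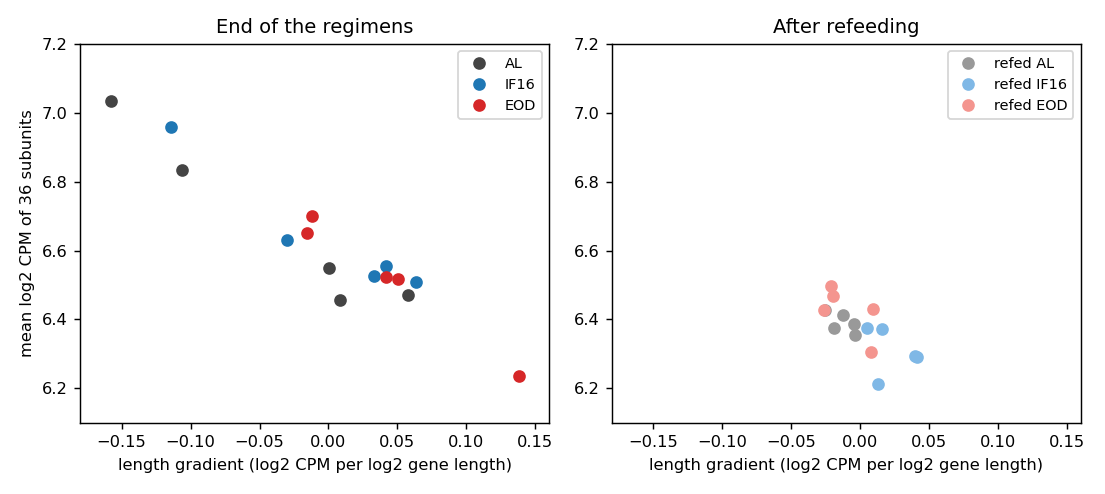
Mean log2 CPM of the 36 subunits (y axis) against the library's length gradient (x axis, log2 CPM per log2 gene length), for the 15 libraries of the regimens (left) and the 15 refed libraries (right), on the same axes. The regimen libraries run along a falling line from AL replicate 4 to EOD replicate 4, with r = -0.96, and the refed libraries sit in a narrower range, with r = -0.72.

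At the end of the regimens no subunit passed an adjusted p of 0.05 by edgeR's quasi-likelihood test in any comparison. In IF16 against AL, 26 of 36 subunits were lower and 10 higher, with a median log2 fold change of -0.05 and 0 at an unadjusted p under 0.05. Among all genes tested 0.0483% were called, and 4.35% were higher and 5.57% lower at an unadjusted p under 0.05. In EOD against AL, 35 of 36 subunits were lower, with a median of -0.16, and again none at an unadjusted p under 0.05. There 0.0664% of all genes were called, and 7.02% were higher and 7.4% lower at that p. In EOD against IF16, 35 of 36 were lower with a median of -0.11 and 0 at that p, where 0% of all genes were called by edgeR (DESeq2 called 1), and 1.76% (291 genes) were higher and 1.86% (309 genes) lower at that p. The median over all genes tested was -0.01, -0.02 and 0.00 in the 3 comparisons, which share libraries with each other. Choroid plexus markers summed to 181 to 5116 CPM in AL, 171 to 4137 CPM in IF16 and 1181 to 3872 CPM in EOD. With their mean as a covariate the medians of the subunits were -0.00, -0.20 and -0.21.

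Of the core subunits of the quinone module, Ndufs7 and Ndufs8 had wider differences between EOD and AL than Ndufs3. Ndufs7 was at 169, 190.2, 194, 334 and 282 CPM in AL, 247, 223, 139.7, 175 and 180.3 CPM in IF16 and 195, 177, 202, 161 and 213 CPM in EOD. AL replicates 4 and 5 were above every other library, and the remaining AL values lay among those of the fasted groups. Its log2 fold change was -0.28 ± 0.18 (SE) in IF16 (adjusted p = 0.592) and -0.30 ± 0.18 in EOD (adjusted p = 0.394). Ndufs8, which holds a pair of iron-sulfur clusters, was at 70.4, 72.6, 84.8, 131 and 102 CPM in AL and 73.1, 65.9, 80.6, 62.7 and 84.6 CPM in EOD. The same AL libraries were high and the groups overlapped. At -0.33 ± 0.16 it had the smallest adjusted p of the subunits in EOD against AL, 0.353. Ndufs3, another core subunit of that module, had a log2 fold change of -0.16 ± 0.13 in EOD (adjusted p = 0.490).

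In the NADH-oxidizing module, Ndufv1, which binds the flavin, had a log2 fold change of -0.18 ± 0.13 in EOD and Ndufv2 one of -0.16 ± 0.13. Ndufs1 was the only subunit higher in EOD, at 0.07 ± 0.06 (adjusted p = 0.521). It was at 107, 102, 110.0, 109 and 100.1 CPM in AL and 110.5, 114, 117, 104 and 107 CPM in EOD, values that overlap and in which no AL library stands out. Of the accessory subunits, Ndufa8 of the membrane arm was at 129, 138, 140.0, 182 and 182 CPM in AL and 117, 122, 145, 127 and 142 CPM in EOD. Its difference of -0.24 ± 0.12 (adjusted p = 0.370) again had AL replicates 4 and 5 above all EOD libraries. Ndufb5 and Ndufab1 had the smallest p-values in EOD against IF16, with differences of -0.22 ± 0.15 and -0.19 ± 0.10 (adjusted p = 0.977 for both).

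Without the 4 libraries of extreme gradient, a choice made after seeing the data, the direction was the opposite one. These libraries also held the 3 highest values and the lowest value of the subunit mean. A shift in the medians was thus built into this choice, and the opposite direction is not a test. The median became 0.06 in IF16 against AL, with 32 of 36 subunits higher and 3 at an unadjusted p under 0.05 (3.79% of all genes). It became 0.10 in EOD against AL, with 33 of 36 higher and 6 at that p (3.24% of all genes). In EOD against IF16 it became 0.04, with 28 of 36 higher and 1 at that p (1.61% of all genes). In none of these was a subunit called. With the gradient as a covariate the medians were 0.06, 0.07 and -0.00, and with length offsets 0.01, -0.04 and -0.04. Leaving out AL replicate 4 alone brought the median in EOD against AL to -0.05 and that in IF16 against AL to 0.04. The sign of the median under either regimen thus differed between these fits, and no direction is read from them. The gradient itself did not pass the test between these groups (exact permutation p, two-sided, 0.175 to 0.452).

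After refeeding, most subunits had negative log2 fold changes in refed IF16 against refed AL. The library means of the subunits overlapped: refed IF16 replicates 2 and 4, both at 6.37, lay above refed AL replicate 2, at 6.35. The subunits varied together over libraries, so counts of them are not counts of independent genes. Of 36 subunits, 34 were lower, the median log2 fold change was -0.08, and 15 (41.7%) were lower at an unadjusted p under 0.05, where 4.83% of all genes were. None was higher at that p (4.76% of all genes), and none was called, against 0.17% of all genes. Without refed IF16 replicate 1, the lowest library of its group, 9 were lower at that p (7.305% of all genes) and the median was -0.05. The 15 comprised 3 core subunits (Ndufs3, Ndufs7, Ndufs8), 3 of the matrix arm, 8 of the membrane arm and Ndufab1. The values of both groups did not overlap for 5 subunits, Ndufa1, Ndufa3, Ndufa6, Ndufab1 and Ndufs7, against 1.11% of all genes with refed IF16 below refed AL throughout (Ndufa6 is named because it falls in this count). Ndufs7 was at 186, 178, 182, 186 and 178 CPM in refed AL and 154, 176, 168, 173 and 168 CPM in refed IF16. It did not overlap between groups, at -0.11 ± 0.04 (adjusted p = 0.395).

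Ndufa1, a small X-linked subunit at the junction of the arms, was at 58.0, 57.1, 64.0, 61.2 and 54.3 CPM in refed AL and 46.9, 54.2, 50.5, 54.1 and 53.3 CPM in refed IF16. Every refed IF16 value lay below every refed AL value, the nearest pair being 54.2 and 54.3. Its log2 fold change was -0.19 ± 0.06, a difference of -12.1%, with an adjusted p of 0.309. Ndufa3, another small membrane-arm subunit, was at 102, 91.8, 96.0, 103 and 93.8 CPM in refed AL and 83.4, 90.8, 88.8, 89.4 and 89.0 CPM in refed IF16. refed IF16 replicate 1 was the lowest, and the groups did not overlap. At -0.14 ± 0.04 Ndufa3 had the smallest adjusted p of the subunits, 0.301. Ndufb8, a membrane-arm subunit that is widely used as a protein marker of assembled complex I, was at 71.4, 71.2, 72.4, 71.8 and 70.6 CPM in refed AL and 59.0, 67.4, 60.0, 70.75 and 62.3 CPM in refed IF16. refed AL was tight and refed IF16 replicate 4 reached its lowest value, so the groups overlapped at -0.16 ± 0.05 (adjusted p = 0.309).

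Not all subunits shared this. Ndufv1 was at 178, 181, 187, 199.6 and 191 CPM in refed AL and 185, 196, 189.5, 186 and 187 CPM in refed IF16, values that overlap throughout, with a difference of 0.01 ± 0.04 (adjusted p = 0.955). Ndufa8 (-0.00 ± 0.05) and Ndufs4 (-0.02 ± 0.04) also lay near 0.

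The length gradient differed between these groups, from -0.026 to -0.0036 in refed AL and from 0.0046 to 0.042 in refed IF16, without overlap (exact permutation p = 0.00794, two-sided, the smallest that 5 against 5 can give; 0.0476 adjusted over 6 comparisons). With the gradient as a covariate the median was -0.01, with 20 of 36 subunits lower and 0 at an unadjusted p under 0.05. With length offsets it was -0.02, with 22 lower and 6 at that p, where 3.84% of all genes were. These 6 were Ndufv3, Ndufb7, Ndufb8, Ndufa11, Ndufa13 and Ndufab1 (named because they fall in this count). Group and gradient nearly coincide here, so their shares in the difference cannot be told apart. Red blood cell markers were lower in 5 of 5 in refed IF16, with 2 at that p (4.83% of all genes). They summed to 8.68 to 114 CPM in refed AL and 13.9 to 56.2 CPM in refed IF16, and their part was not tested. Choroid plexus markers, 11 of 11 lower and 0 at that p, summed to 165 to 2750 CPM in refed AL and 155 to 1030 CPM in refed IF16. With their mean as a covariate the median was -0.09 and 15 subunits were lower at that p (4.415% of all genes). Astrocyte markers were higher in 7 of 7 in refed IF16, and their part was not tested. Of these Aqp4, the glial water channel, was called at 0.23 ± 0.04 (adjusted p = 0.0374), as were 0.17% of all genes.

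In refed EOD against refed AL the subunits were close to the controls. The median log2 fold change was 0.03, with 30 of 36 higher. Only Ndufs4, an accessory subunit needed for stable assembly of the NADH-oxidizing module, was higher at an unadjusted p under 0.05 (2.78% of the subunits, against 4.51% of all genes); none was lower (3.99% of all genes), and 0.0426% of all genes were called. Ndufs4 was at 61.4, 64.0, 63.7, 66.2 and 64.6 CPM in refed AL, 58.6, 66.7, 64.0, 67.1 and 59.9 CPM in refed IF16 and 64.2, 71.8, 69.2, 71.5 and 71.2 CPM in refed EOD. Of the refed EOD libraries 4 were above all others and replicate 1 was not, at 0.12 ± 0.04 against refed AL (adjusted p = 0.444). Without refed EOD replicate 1 the median was 0.06 and 9 subunits were higher at an unadjusted p under 0.05 (6.26% of all genes). Without refed AL replicates 4 or 5 in turn, 4 and 3 subunits were (4.87% and 4.06% of all genes). Refed EOD replicate 1 had the lowest subunit mean of its group, and refed AL replicates 4 and 5 the highest of theirs. A rise was thus built into leaving them out. No subunit had refed EOD values wholly above refed AL, against 0.949% of all genes.

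refed EOD against refed IF16 gave the clearest pattern. Of 36 subunits, 35 were higher in refed EOD, the median was 0.12, and 21 (58.3%) were higher at an unadjusted p under 0.05, where 4.99% of all genes were. None was lower at that p (4.76% of all genes), and none was called, against 0.0182% of all genes. This comparison shares its refed IF16 libraries with the one against refed AL, so the 2 are not independent. The subunits varied together over libraries, so the 21 are not independent of each other either. The 21 comprised 3 of 7 core subunits (Ndufs1, Ndufv2 and Ndufs3), 5 of 9 of the matrix arm, 12 of 19 of the membrane arm and Ndufab1. Ndufv1 was the exception in sign, at -0.03 ± 0.04.

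Ndufa11, a membrane-arm subunit at the contact with complex III in the supercomplex, was at 51.2, 58.1, 53.3, 51.6 and 50.35 CPM in refed IF16 and 54.5, 64.3, 67.1, 57.9 and 65.9 CPM in refed EOD, and at 57.4 to 61.0 CPM in refed AL. In refed EOD 3 libraries lay above every refed IF16 library, and refed IF16 replicate 2 lay among the refed EOD values. Its log2 fold change of 0.23 ± 0.05, or 17%, had the smallest adjusted p of the subunits, 0.226. Ndufa7, of the matrix arm, was at 45.5, 52.45, 46.5, 50.95 and 48.4 CPM in refed IF16 and 49.2, 56.7, 58.6, 57.7 and 59.3 CPM in refed EOD. refed EOD replicate 1 alone fell within the refed IF16 range, and the difference was 0.21 ± 0.05 (adjusted p = 0.228). Ndufv3, a small and variable accessory subunit chosen here after its values were seen, was the one subunit whose groups did not overlap, against 0.791% of all genes: 59.5 to 64.2 CPM in refed IF16 and 65.4 to 73.1 CPM in refed EOD, at 0.16 ± 0.04 (adjusted p = 0.230).

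refed EOD replicate 1 was low for most subunits. Without it 5 subunits were called by edgeR: Ndufa7 (0.25, adjusted p = 0.0178), Ndufa11 (0.27, 0.0212), Ndufab1 (0.17, 0.0268), Ndufa6 (0.20, 0.0435) and Ndufa1 (0.25, 0.0494). Over all genes 71 were called without this library, against 3 with it. Its subunit mean, 6.31, was the lowest of its group, so a wider difference was built into leaving it out. DESeq2 on all libraries also called 5, Ndufa11, Ndufa7, Ndufv3, Ndufb9 and Ndufa1, with adjusted p from 0.0215 to 0.0475. Over all genes DESeq2 called 123, where edgeR called 3. The gradient was lower in refed EOD than in refed IF16 (exact permutation p = 0.0238, two-sided; 0.0714 adjusted). With it as a covariate the median was 0.06 and 1 subunit, Ndufa1, was higher at an unadjusted p under 0.05 (2.45% of all genes). With length offsets the median was 0.07, 11 were higher at that p (3.46% of all genes), and Ndufv1 was lower (4.03% of all genes). Ndufa11 and Ndufab1 kept differences of 0.22 and 0.14 under the offsets and had 0.07 and 0.07 with the covariate. Choroid plexus markers summed to 155 to 1030 CPM in refed IF16 and 166 to 3037 CPM in refed EOD. With their mean as a covariate 24 subunits were higher at that p (4.895% of all genes). Endothelial markers were higher in 5 of 6 in refed EOD, with 1 at that p (4.99% of all genes). Their mean log2 CPM was 5.35 to 5.46 in refed IF16 and 5.46 to 5.52 in refed EOD, and their sums did not overlap (271 to 297 against 299.6 to 314 CPM). Their part was not tested.

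**Figure D4:**
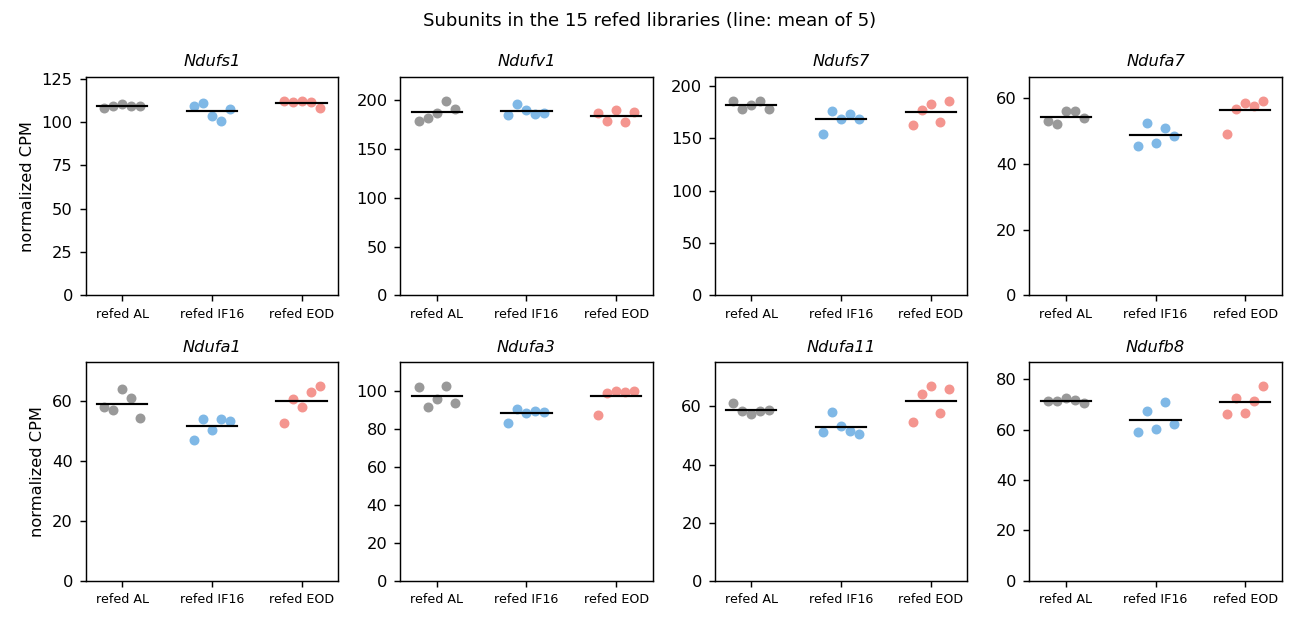
Normalized CPM from 0 (y axis) of 8 subunits in the 15 refed libraries, by group, with the mean of 5 as a line. For Ndufa1 and Ndufa3 every refed IF16 point lies below every refed AL point, the Ndufv1 points of all 3 groups overlap, and 1 refed EOD library, replicate 1, sits low for Ndufa7, Ndufa3 and Ndufa11.

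**Figure D5:**
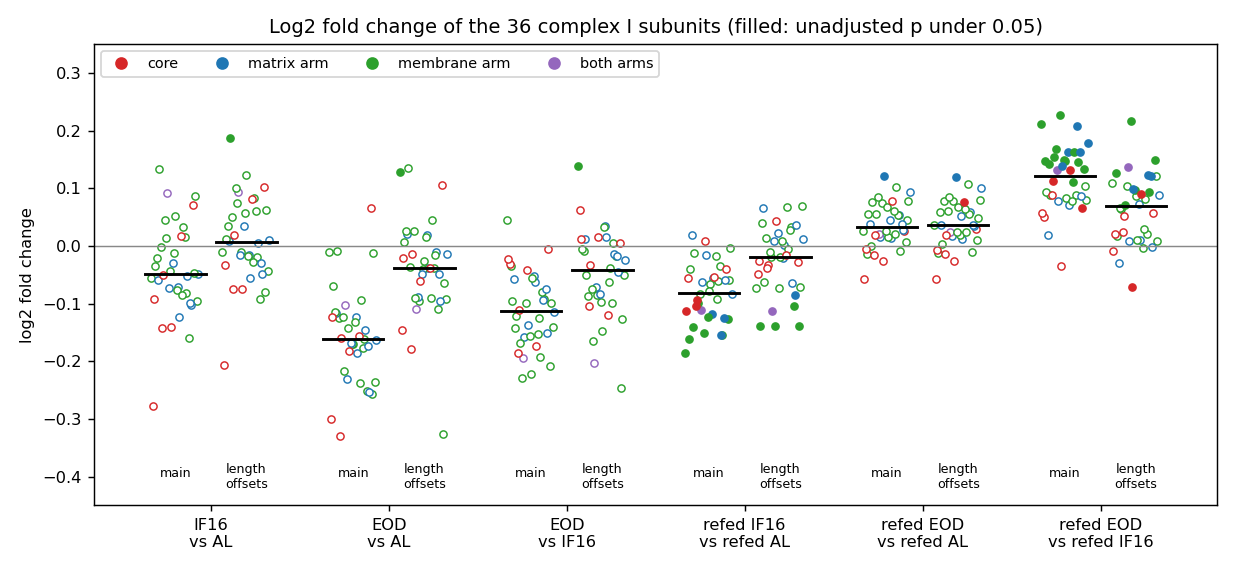
Log2 fold change (y axis) of the 36 subunits in 6 comparisons (x axis), by edgeR on the counts (left of each pair) and with a length trend removed by offsets (right), coloured by place in the complex; filled points have an unadjusted p under 0.05 and black lines are medians. The medians of -0.16 in EOD against AL, -0.08 in refed IF16 against refed AL and 0.12 in refed EOD against refed IF16 move to -0.04, -0.02 and 0.07 with the offsets.

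Whether a regimen's difference changed between the end of fasting and the end of refeeding was tested in 1 fit of all 30 libraries, as the refed difference minus the difference at the end of the regimen. For the daily fast the median was -0.04, with 22 of 36 subunits lower, and 0 at an unadjusted p under 0.05 in either direction (3.93% of all genes higher, 3.28% lower), and none called (0.0474% of all genes). For the alternate-day fast the median was 0.20, with 35 of 36 higher. Ndufa8 (0.31 ± 0.14, adjusted p = 0.467) and Ndufs4 (0.28 ± 0.13, adjusted p = 0.470) were higher at an unadjusted p under 0.05, where 5.48% of all genes were, none was lower (4.86%), and none was called (0.0119%). Without AL replicate 4 the median was 0.10 with 0 subunits at that p, and without AL replicate 2 it was 0.25 with 6 (7.27% of all genes). Without the 4 libraries of extreme gradient, which also held the extremes of the subunit mean, the median for the daily fast was -0.12. There 15 subunits were lower at that p, against 4.51% of all genes. For the alternate-day fast the median was -0.07, so that its sign turned. A shift in these medians was built into the choice of libraries. The 2 sets of mice also differed in age, 6 against 8 months, in all groups alike.

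Ndufa4, the complex IV subunit, was at 200.1, 203.7, 218, 228 and 224 CPM in refed AL, 190.1, 216, 203.7, 213 and 207 CPM in refed IF16 and 216, 245, 237, 232 and 235 CPM in refed EOD. refed EOD replicate 1 was the low one, and 4 refed EOD libraries were above all others, at 0.18 ± 0.05 against refed IF16 (adjusted p = 0.228) and 0.12 ± 0.05 against refed AL (adjusted p = 0.466). Ndufa4l2, in the brain a transcript of vascular mural cells, was at 4.31, 4.68, 4.28, 6.40 and 5.98 CPM in AL and 3.54, 2.84, 3.64, 4.16 and 4.05 CPM in EOD. All EOD values were under all AL values, as for 1.53% of all genes and 0 of the 36 subunits, at a log2 fold change of -0.49 ± 0.17 (unadjusted p = 0.0113, adjusted p = 0.309). The highest AL libraries were again replicates 4 and 5.

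The mitochondrially encoded subunits did not pass the test under either regimen. The 7 mRNAs mt-Nd1 to mt-Nd6 and mt-Nd4l were higher in 7 of 7 in IF16 and in EOD against AL, with medians of 0.11 and 0.09. None of the 7 had an unadjusted p under 0.05, where 4.35% and 7.02% of all genes were higher. Over the 15 libraries of the regimens the mean of these 7 mRNAs had r = -0.24 with that of the nuclear subunits, and over the refed libraries 0.19. In refed IF16 against refed AL they were lower in 6 of 7, with 3 at that p (4.83% of all genes were lower at it). Of the 7, mt-Nd3 was called, as were 0.17% of all genes. It was at 9.42, 8.73, 9.59, 9.37 and 8.22 CPM in refed AL and 7.94, 4.70, 4.39, 5.24 and 4.76 CPM in refed IF16. All refed IF16 values were under all refed AL values, at -0.74 ± 0.13 (adjusted p = 0.0312). Nuclear copies of mitochondrial sequence make counts of these genes uncertain, and mt-Nd3 is counted far below mt-Nd1 (4174 to 4637 CPM in refed AL).

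Nuclear genes of the other respiratory complexes varied over libraries together with the complex I subunits. Over libraries, the mean of the complex III list had r = 0.99 with theirs in the regimens and 0.98 after refeeding, that of ATP synthase 0.99 and 0.98, and that of complex IV, a list that holds Ndufa4, 0.95 and 0.98. The 4 complex II genes had 0.94 and 0.86, and the 17 complex I assembly factors 0.95 and 0.93. In refed IF16 against refed AL, 4.83% of all genes were lower at an unadjusted p under 0.05. So were 7 of 11 complex IV genes (median -0.11), 8 of 15 ATP synthase genes (median -0.10) and 5 of 9 complex III genes (median -0.08). Of the 4 complex II genes 0 were. Among the genes of these lists Atp5k, a membrane subunit of ATP synthase, was called at -0.32 ± 0.06 (adjusted p = 0.0312), as were 0.17% of all genes. In refed EOD against refed IF16, 4.99% of all genes were higher at that p. So were 10 of 11 complex IV, 10 of 15 ATP synthase and 3 of 9 complex III genes, with medians of 0.16, 0.12 and 0.08. Complex IV genes have a median length of 690.0 bases, ATP synthase genes 955, complex III genes 1194 and complex II genes 2093.5, against 1014.5 for the complex I subunits. The 17 complex I assembly factors have a median length of 1676 bases. Of these 3 were lower at that p in refed IF16 against refed AL (4.83% of all genes), with a median of -0.06. In refed EOD against refed IF16 3 were higher at that p (4.99% of all genes), with a median of 0.05. In EOD against AL Ndufaf2 had the smallest p of the assembly factors (-0.28 ± 0.13, adjusted p = 0.343).

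Of 8 regulators of respiratory genes none was called in any of the 8 comparisons. Ppargc1b, a coactivator of mitochondrial biogenesis, had the smallest p in refed EOD against refed IF16, where it was lower at -0.44 ± 0.08 (adjusted p = 0.115) while the subunits were higher. Nrf1, a factor that binds the promoters of many respiratory genes, had the smallest p in EOD against AL, at -0.16 ± 0.06 (adjusted p = 0.317), and Yy1 in IF16 against AL, at -0.21 ± 0.08 (adjusted p = 0.419).

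Because the subunits moved together, their promoters were searched for the letters of 4 factors. Windows of 250 bases before to 50 after a transcript start were taken from RefSeq (GRCm38.p6) and matched for 32 of the 36 subunits. An NRF1-type motif, GCGCNTGCG on either strand, was found in 9 of 32 (28.1%), against 7.12% of 27025 genes with a window. A YY1-type motif, AAGATGGC, was found in 7 of 32 (21.9%), against 3.19%. An ETS-type motif, CCGGAAG, was found in 4 of 32 (12.5%), against 9.93%, and an ERR-type motif, TCAAGGTCA, in 0 of 32, against 0.466%. The 27025 genes were not limited to those tested here and were not matched to the subunits for level or base content. These shares therefore do not set the subunits apart from other highly expressed genes. A match is a run of letters and not a shown site. The NRF1-type letters are nearly their own reverse complement, so that 1 place can match on both strands, as in Ndufa11. The 90 bases before the start are shown for Ndufa8 and Ndufa11, which had the smallest p-values of the subunits in the alternate-day interaction and in refed EOD against refed IF16, and for Ndufb4, which held the most matches (3 in its window, 2 of them here), 5′ to 3′ on the gene's strand with the motif on either strand in capitals.
Ndufa8 (chr2:36049339-36049428, minus strand): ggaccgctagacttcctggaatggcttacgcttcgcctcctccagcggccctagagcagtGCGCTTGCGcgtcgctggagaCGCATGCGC
Ndufa11 (chr17:56717672-56717761, plus strand): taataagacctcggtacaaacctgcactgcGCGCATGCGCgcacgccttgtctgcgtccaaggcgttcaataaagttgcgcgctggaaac
Ndufb4 (chr16:37654369-37654458, minus strand): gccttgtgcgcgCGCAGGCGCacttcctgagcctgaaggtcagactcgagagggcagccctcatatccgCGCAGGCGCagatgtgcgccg

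The YY1-type matches lay in one place. In all 7 subunits the match was on the gene's own strand and began 22 to 38 bases after the start, inside the transcript. The stretches are shown because of this shared position, with the motif in capitals; its letters include ATG, and whether that is the start codon was not determined.
Ndufa3 (chr7:3617386-3617413, plus strand): gccaagaacAAGATGGCcgggagtaagt
Ndufa9 (chr6:126849097-126849124, minus strand): ttgtgggagAAGATGGCggccgccgtcc
Ndufb8 (chr19:44555393-44555413, minus strand): gagaaggtgAAGATGGCtgcc
Ndufc1 (chr3:51408915-51408942, minus strand): ctgcggaacAAGATGGCgccgtccgtag
Ndufs4 (chr13:114388045-114388068, minus strand): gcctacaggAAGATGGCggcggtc
Ndufs6 (chr13:73328433-73328458, minus strand): gtcaccggcAAGATGGCggcggtgct
Ndufs7 (chr10:80249464-80249491, plus strand): gccgaggccAAGATGGCggcgctggcgg

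The 7 differed in their values after refeeding. Of the 7 with the YY1-type letters, Ndufa3, Ndufb8, Ndufc1 and Ndufs7 were lower in refed IF16 against refed AL at an unadjusted p under 0.05, and Ndufa9 (0.02), Ndufs4 (-0.02) and Ndufs6 (-0.06) were not. Among all 36 subunits 15 (41.7%) were lower at that p, and among all genes 4.83%. Ndufa8 and Ndufa11, both with NRF1-type letters close to the start, had differences of -0.00 and -0.15 in that comparison. Both were shown for small p-values in other comparisons and do not stand for the 9 subunits with these letters. Of the 9, Ndufa6 alone had refed IF16 values wholly below refed AL.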

How the data were processed

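RNA-seq of 30 mouse cerebellum libraries (6 groups of 5) was analysed, and 12 chromatin immunoprecipitation and input samples were not analysed here. Per the file headers, the 2 deposited tables (15 libraries each) hold whole-number counts for each gene beside its length. They also deposited FPKM values, which equal the counts divided by length and library total (largest relative difference 4.97e-12 for counts of at least 10). The submitters' processing notes name STAR 2.5, HTSeq 0.6.1, DESeq2 and mm10; read strand and annotation release are not given in the sources used here. Members and lists were chosen with earlier results of these data known.

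Counts were tested with edgeR 4.0.16 in R 4.3.3 (TMM, filterByExpr, quasi-likelihood test, Benjamini-Hochberg over all genes tested, called at an adjusted p under 0.05), 1 fit per table over 15 libraries and 1 joint fit for interactions. The filter left 16577, 16444 and 16877 genes. Normalized CPM are TMM-scaled within a table; log2 CPM has a prior count of 2, and SE derives from the F statistic. No 2 libraries of a group agreed within sampling noise (chi-square per degree of freedom of 4.24 to 136 over 60 pairs). Length offsets used a loess trend of span 0.5. Library totals keep counting error below the spread between libraries for most subunits. It weighs more for Ndufa4l2, with 85 to 211 counts, and after refeeding for Ndufs1, with a within-group SD of 0.036 log2 CPM. Named members are the 7 core subunits, the 3 with the smallest p per comparison, the 3 highest and 3 lowest in FPKM, and Ndufa4, Ndufa4l2 and Ndufab1. A single member enters the counts and medians but is not reported here by itself. Of 18 assembly factors listed, 17 were found. The fits were tested on simulated data. DESeq2 1.42.0 was an alternative.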

Additional observations from a re-analysis of the deposited data

Results flagged for a closer look

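Each named gene, the mean of the 36 subunits and the length gradient were checked in each group of 5 libraries for a value far from the others (a gap to the nearest value of more than 0.71 of the group's range). Of 138 such checks 16 met it; chance gives about 1 in 20, and the genes are correlated, so such values in 1 library are not independent. IF16 replicate 1 was the highest of its group for 7 genes: Ndufv2 at 157 CPM (next 126), Ndufs4 at 99.7 CPM (next 80.0), Ndufa1 at 78.9 CPM (next 65.4), Ndufa3 at 174 CPM (next 126), Ndufb5 at 85.1 CPM (next 62.2), Ndufb7 at 132 CPM (next 94.9) and Ndufa4 at 324 CPM (next 268). Its mean log2 CPM of the 36 subunits, 6.96, was likewise high against 6.63. EOD replicate 4 was the lowest for Ndufb7, at 58.9 CPM (next 85.2).

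After refeeding, refed EOD replicate 1 was the lowest of its group for 4 genes: Ndufa7 at 49.2 CPM (next 56.7), Ndufa3 at 87.6 CPM (next 99.0), Ndufb5 at 48.6 CPM (next 54.4) and Ndufab1 at 72.0 CPM (next 81.4). refed IF16 replicate 1 was the lowest for Ndufa3, at 83.4 CPM (next 88.8). refed IF16 replicate 2 was the highest for Ndufa4l2, at 4.84 CPM (next 3.79). refed EOD replicate 5 was the lowest for Ndufs1, at 108 CPM (next 111).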

How the results depend on the processing

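No subunit was called by edgeR in any of the 8 comparisons, and that count held under each alternative run except in refed EOD against refed IF16, where DESeq2 called 5 and edgeR without refed EOD replicate 1 called 5 (0 to 5 over the 10 fits that leave out 1 library). Over all genes these runs called 123 and 71, against 3 in the main fit. The library left out had the lowest subunit mean of its group, so a wider difference was built in. The median log2 fold change moved by more than the spread between libraries with the length gradient as a covariate, to 0.0678 in EOD against AL, -0.00631 in refed IF16 against refed AL, 0.0569 in refed EOD against refed IF16 and -0.0397 in the interaction of the alternate-day fast. It did so with length offsets in refed IF16 against refed AL (-0.0198). It also did so without the 4 libraries of extreme gradient in EOD against AL (0.0993) and in that interaction (-0.0717). Those libraries were chosen after seeing the data and also held the extremes of the subunit mean, so a shift was built in. The cause was not tested. Leaving out 1 library at a time gave medians of -0.13 to 0.04 in IF16 against AL, -0.22 to -0.05 in EOD against AL, -0.17 to -0.02 in EOD against IF16, -0.11 to -0.05 in refed IF16 against refed AL, 0.02 to 0.06 in refed EOD against refed AL, 0.10 to 0.15 in refed EOD against refed IF16, -0.13 to 0.05 in the interaction of the daily fast and 0.10 to 0.25 in that of the alternate-day fast. The count at an unadjusted p under 0.05 ranged from 9 to 16 in refed IF16 against refed AL and from 17 to 27 in refed EOD against refed IF16. Over 21 named genes, 3708 of 3717 further values kept their side of the threshold; 9, all in refed EOD against refed IF16, passed it only under DESeq2, the replicate block or without refed EOD replicate 1.

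Same-numbered libraries of different groups had a median correlation of deviations of -0.04 in the regimens (3 of 15 pairs above 0.1) and 0.10 after refeeding (8 of 15), against -0.00 (24 of 60) and -0.04 (12 of 60) for other pairs. Not every pair was above 0.1 and the labels name no shared origin, so libraries were not treated as paired, although the refed numbers may hold some shared origin. With the replicate number as a block, 0 subunits were called in each comparison. The median was -0.08 in refed IF16 against refed AL, with 17 subunits lower at an unadjusted p under 0.05 (7.04% of all genes). In refed EOD against refed IF16 it was 0.12, with 26 higher at that p (6.57% of all genes). Ndufa4 was called in the latter (0.18, adjusted p = 0.0473 by edgeR). The count of genes called over all genes went from 28 to 95 and from 3 to 40, and in refed EOD against refed AL from 7 to 45; DESeq2 called 105, 123 and 87 genes in these and 94 in IF16 against AL and 133 in EOD against AL, where edgeR called 8 and 11.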
